A study of Homo sapiens with 20 samples.

Results

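ADGRE5, the adhesion receptor better known as CD97, was followed in human lung cancer cell lines together with its ligands CD55 and THY1 and with CD46, CD59 and CD47, which shield cells from complement or from phagocytes. These 6 members were chosen by gene symbol from the 36076 genes of the expression table, and ADGRE5 was chosen because its mRNA was at least 2-fold higher after decitabine in the CL1-5 line only, so its mRNA change is given as a description without a test. mRNA-seq covered 6 lines (H1299, H1792, PC9, A549, CL1-0 and CL1-5). Omni-ATAC-seq, which maps open chromatin by the insertions of a transposase, covered each of these except H1792 and CL1-0. In both assays each line gave 1 Mock library, from cells given PBS, and 1 DAC library, from cells given 100 nM decitabine for 72 hours and then kept for 3 days without the drug. All are cultured tumor lines. Within a line there is thus no replicate, and the lines serve as the replicates of the treatment. CL1-5 is a subline of CL1-0 selected for invasion.

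Decitabine is a cytidine analog that traps DNA methyltransferases, so that dividing cells lose DNA methylation at CpG sites. CD97 belongs to the EGF-TM7 group of adhesion G protein-coupled receptors, whose long extracellular part carries EGF-like domains in front of a segment that cleaves itself. Its EGF-like domains bind CD55 (decay-accelerating factor), and THY1 (CD90) on activated endothelium and fibroblasts is another partner, so that CD97 links leukocytes and tumor cells to their neighbors. CD55 takes apart the convertases that drive complement, CD46 is the cofactor with which factor I cuts complement fragments deposited on the membrane, and CD59 stops the membrane attack complex from closing its pore. CD47 does not act on complement: it engages SIRPA on macrophages and restrains engulfment. CD55, CD59 and THY1 are held in the membrane by a glycosylphosphatidylinositol (GPI) anchor, whereas CD46 and CD47 span it.

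Because decitabine acts on CpG sites, the sequences under the open chromatin of the receptor and of its ligands are shown with every CG in capitals, from 5′ to 3′ on the strand of the gene, in build GRCh37 (hg19), the build of the peak lists. The ADGRE5 stretch at chr19:14492123-14492415 on the plus strand is the part of the start-site peak that the 8 Omni-ATAC-seq libraries shared. It holds 15 CG in 293 bases, 235 of its bases lie in annotated exons of ADGRE5, and 22 lie in coding sequence. The CD55 stretch at chr1:207494726-207495025 on the plus strand is the center of its start-site peak, which was also shared by 8 libraries, and holds 15 CG in 300 bases, 161 of them exonic. THY1 is on the minus strand, and its promoter peak of A549 after Mock (chr11:119293283-119293575) holds 19 CG in 293 bases and overlaps no exon of a protein-coding THY1 transcript.
ADGRE5, shared by 8 libraries: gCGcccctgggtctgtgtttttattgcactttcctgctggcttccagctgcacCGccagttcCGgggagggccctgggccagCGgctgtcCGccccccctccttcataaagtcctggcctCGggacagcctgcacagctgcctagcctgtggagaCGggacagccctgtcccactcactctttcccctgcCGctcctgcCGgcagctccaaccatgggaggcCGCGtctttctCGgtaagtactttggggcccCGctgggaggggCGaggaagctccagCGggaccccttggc
CD55, shared by 8 libraries: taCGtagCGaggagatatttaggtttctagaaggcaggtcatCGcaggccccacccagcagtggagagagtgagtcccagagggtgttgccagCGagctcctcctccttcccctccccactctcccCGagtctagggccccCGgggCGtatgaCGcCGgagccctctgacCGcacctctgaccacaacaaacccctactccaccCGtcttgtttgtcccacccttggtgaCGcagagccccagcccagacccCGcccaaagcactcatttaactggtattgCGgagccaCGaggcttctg
THY1, A549 Mock: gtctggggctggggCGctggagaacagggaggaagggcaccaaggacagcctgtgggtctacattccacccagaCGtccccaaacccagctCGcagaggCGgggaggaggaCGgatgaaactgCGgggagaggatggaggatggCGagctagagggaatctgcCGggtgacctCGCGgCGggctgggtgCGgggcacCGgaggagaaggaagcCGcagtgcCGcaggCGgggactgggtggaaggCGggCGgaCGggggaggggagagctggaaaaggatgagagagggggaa

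The members' start sites differed in CpG content. In the 300 bases centered on a listed start site, ADGRE5 and THY1 held 9 CG each, CD55 held 15, CD46 24 and CD47 46, against a median of 20 over 26104 start sites of 19001 genes with a promoter peak. CD59 has 3 listed start sites, of which the upstream one at position 33758025 of chromosome 11 held 25 CG and the downstream ones held 1 and 2. The GC box GGGCGG, read on both strands, was found in 52.7% of all these windows, and it was present at the ADGRE5, CD46 and CD47 starts and at the upstream CD59 start.

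The depth of the mRNA-seq libraries ranged from 22234485 to 25303899 reads on genes in 10 libraries and from 52634234 to 59735913 in those of H1299. Among genes of H1299 with 1 to 20 reads, 81.9% to 85.5% had an even read number, against 39.2% to 41.5% elsewhere. H1299 reads are thus not independent counts. Its counting intervals were computed with the reads taken in pairs, and may still be too narrow. Intervals below are 95% intervals of counting error only and say nothing of the spread between cultures. Levels are in FPKM, fragments per kilobase of gene scaled to library size, which allows genes of different length to be compared. CL1-0 had under 1 FPKM of each of 5 epithelial markers after Mock (summed 0.986), against 111 to 3015 FPKM in the other lines, although it is a lung adenocarcinoma line. The 10 leukocyte markers summed to between 1.15 and 6.53 FPKM after Mock and between 1.69 and 11.5 after DAC, with A549 highest under both treatments. At most 1 of them reached 1 FPKM in a Mock library and at most 3 in a DAC library. CD3E, a T cell marker, was the only one with 3 reads or fewer in each of the 12 libraries. Fibroblast markers summed to 105 FPKM in H1792 Mock and 159 in H1792 DAC, and to at most 7.48 elsewhere. Over the 5 fitted lines the median log2 change after DAC was 0.80 over 5 epithelial, 0.48 over 6 leukocyte and 0.96 over 5 fibroblast markers, beside 0.07 over all tested genes. Of these 16 genes, 0 passed the adjusted threshold in limma. At an unadjusted p under 0.05, 6 of them were higher, beside 8.07% of all tested genes, and 0 were lower. The part of such cell-type markers in the THY1, ITGB2 and ADGRE1 values was not tested.

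The receptor gene ADGRE5 lies on the plus strand of chromosome 19 (14491313 to 14519537). It read 8.59 FPKM in A549 Mock and 9.29 in A549 DAC, 17.3 and 17.2 in CL1-0, 2.32 and 8.45 in CL1-5, 13.9 and 15.3 in PC9, 25.2 and 23.9 in H1299, and 22.2 and 22.8 in H1792. CL1-5 was therefore the lowest line under both treatments and H1299 the highest, and the Mock and DAC values of the 6 lines overlapped. In CL1-5 the difference rested on 339 reads after Mock and 1104 after DAC, a ratio of 3.63 with a counting interval of 3.22 to 4.12, or 1.82 on the scale of log2(FPKM + 0.1). In these bulk libraries, more ADGRE5 mRNA per cell and more cells with it cannot be told apart. The other 5 lines lay between 0.949 and 1.09 in ratio, and the counting interval included 1 in A549 (0.994 to 1.18), CL1-0 (0.937 to 1.05) and H1792 (0.977 to 1.08), but not in PC9 (1.02 to 1.17) or H1299 (0.906 to 0.994). On the log2 scale CL1-0 and H1792 changed sign with the scaling, from -0.01 to 0.17 and from 0.04 to -0.12 after rescaling to a common sum. These are mRNA values, and surface protein was not measured in these libraries. The paper's surface proteomics names CD97 among the molecules induced by decitabine, with values for A549, H1299 and CL1-0.

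Before treatment the lines differed widely. The highest Mock level of ADGRE5 was 10.8-fold the lowest, and after DAC this span was 2.83-fold. All neighbors in the Mock order (H1299, H1792, CL1-0, PC9, A549, CL1-5) were apart by more than their counting intervals. After DAC the order was the same, but H1299 and H1792 overlapped in their intervals, and so did A549 (8.79 to 9.82) and CL1-5 (7.96 to 8.96). CL1-5 DAC thus reached the A549 level and stayed below the CL1-0 Mock level of 17.3 FPKM. Over the 5 lines the mean log2 change was 0.39 with a standard error of 0.28, and without CL1-5 it was 0.04. In CL1-5, 7.25% of the 22603 tested genes were at least 2-fold higher after DAC, and 270 genes (1.19%) were so in CL1-5 with a difference under 2-fold in each of the other lines, the pattern for which ADGRE5 was chosen.

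**Figure D1:**
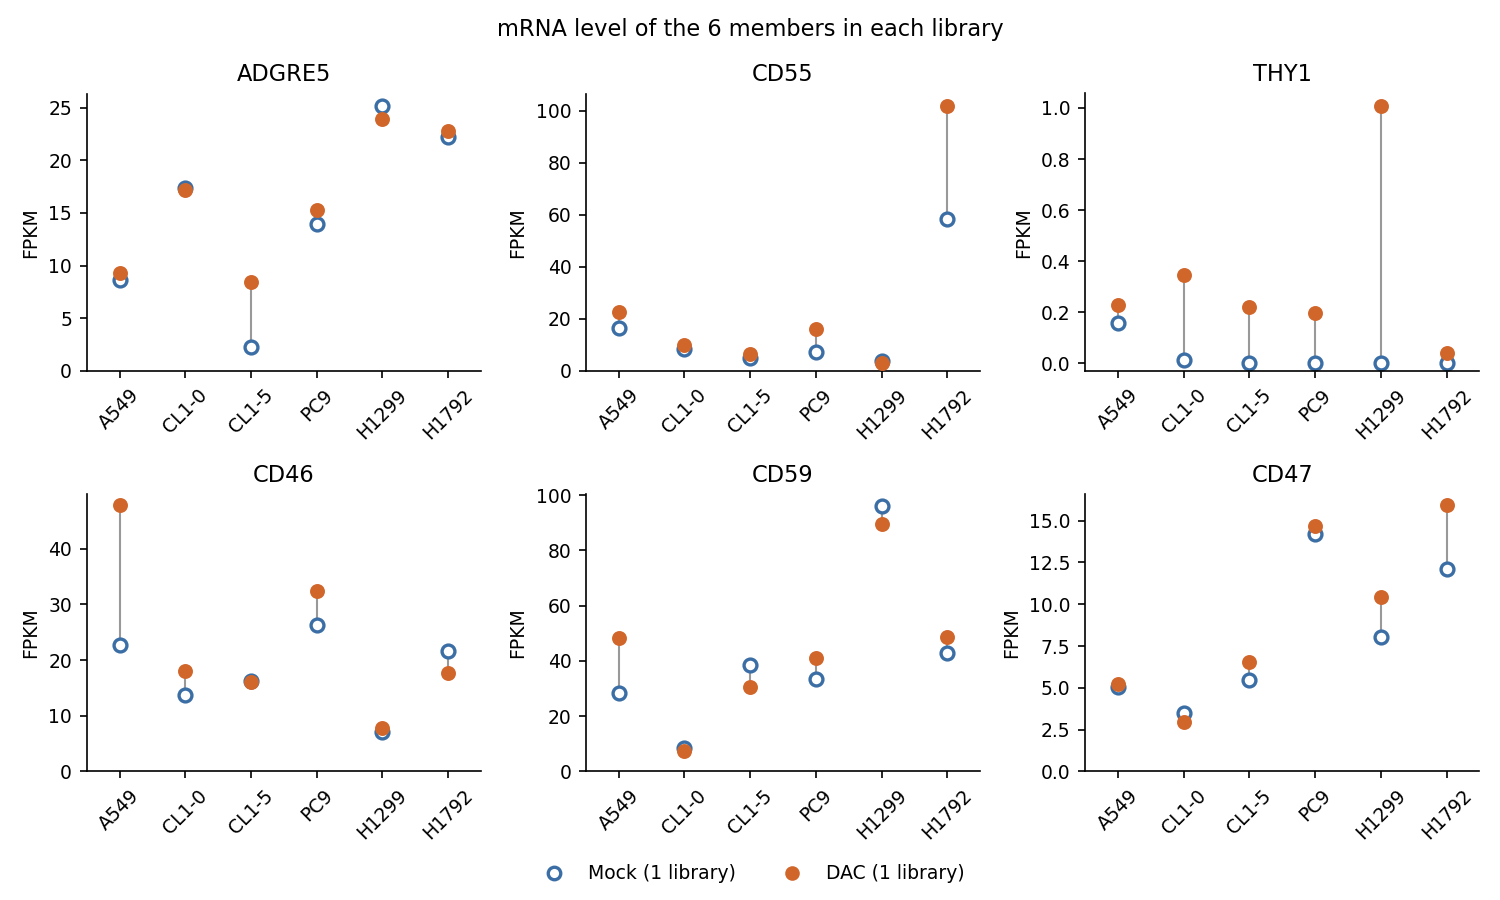
mRNA level in FPKM (linear axis, a separate range for each gene) of the 6 members in the Mock library (open circle) and the DAC library (filled circle) of each line, 1 library per point, with a gray line between both. ADGRE5 is separated between treatments in CL1-5 (2.32 against 8.45 FPKM), CD55 is highest in H1792, and THY1 stays near 1 FPKM or below in every library.

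CD55, the ligand of the EGF-like domains, is on the plus strand of chromosome 1 (207494864 to 207560149) and was detected in each line. It read 16.6 FPKM in A549 Mock and 22.8 in A549 DAC, 8.41 and 9.94 in CL1-0, 4.92 and 6.58 in CL1-5, 7.21 and 16.3 in PC9, 3.82 and 3.23 in H1299, and 58.3 and 102 in H1792. H1299, the line with the most receptor mRNA, had the least of this ligand under both treatments, and H1792 had the most. CD55 was higher after DAC in 4 of the 5 fitted lines and in H1792, and lower in H1299. Its mean log2 change was 0.41 with a standard error of 0.19 (0.22 without PC9), and it did not pass the threshold in limma (adjusted p = 0.431), where 0.119% of all tested genes were called higher. In PC9 the ratio of 2.26 (counting interval 2.08 to 2.45) was past 2-fold, as were 10.2% of the tested genes in that line.

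The balance of receptor to ligand, taken as the ratio of their FPKM values, spanned a wide range. ADGRE5 was 6.60 times CD55 in H1299 Mock and 0.380 times CD55 in H1792 Mock. In CL1-5 this ratio was 0.472 after Mock and 1.28 after DAC, where ADGRE5 was 3.63-fold and CD55 1.34-fold higher. It was also higher after DAC in H1299 (7.41), and lower in the other 4 lines, from 1.93 to 0.936 in PC9, 2.06 to 1.73 in CL1-0, 0.517 to 0.408 in A549 and 0.380 to 0.224 in H1792.

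THY1, the other ligand, on the minus strand of chromosome 11 (119286186 to 119295695), was close to the limit of detection. Mock libraries held 20 reads in A549 (0.158 FPKM), 2 in CL1-0 (0.0143 FPKM) and 0 in CL1-5, PC9, H1299 and H1792. DAC libraries held 34 reads in A549 (0.227 FPKM), 61 in CL1-0 (0.348), 32 in CL1-5 (0.222), 27 in PC9 (0.197), 315 in H1299 (1.01) and 6 in H1792 (0.0422). Each line thus had more THY1 reads after DAC, and all DAC libraries except that of H1792 exceeded the highest Mock library. Against a floor of 3 reads per library, THY1 was at least 11.9-fold higher in CL1-5, at least 8.08-fold in PC9, at least 114-fold in H1299 and at least 2.07-fold in H1792. These bounds take the DAC reads as exact, and with their counting error included the lower limits were 9.13 in CL1-5, 6.13 in PC9, 45.5 in H1299, whose reads are not independent, and 1.22 in H1792. In CL1-0 the ratio was 24.3 (counting interval 6.45 to 205), and in A549 it was 1.44 with an interval (0.806 to 2.64) that included 1.

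THY1 entered the fit only through its DAC libraries, since its mean over the Mock libraries of the 5 lines was 0.0344 FPKM and the filter was set at 0.1, so its values there are a description. It was higher after DAC in 5 of 5 fitted lines, as were 6.76% of the tested genes, and in 6 of 6 lines, as were 4.54%, but in A549 the log2 difference of 0.34 became -0.32 after quantile normalization. The mean log2 change of 1.81 was set largely by the pseudocount, being 0.41 with a pseudocount of 1, 3.99 with 0.01 and 4.92 with voom on the recovered reads. No p-value is given for THY1, since the filter let it in through its DAC libraries. The gene USP2-AS1 overlaps THY1 on the other strand and read between 0.232 and 0.711 FPKM. The strand setting of the counting is not given in the sources used here, so a share of antisense reads in the THY1 values was not tested.

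Among the complement shields, CD59 was the most abundant in 8 of 12 libraries. CD46, on the plus strand of chromosome 1 (207925382 to 207968858), read 22.7 FPKM in A549 Mock and 47.8 in A549 DAC, 13.8 and 18.1 in CL1-0, 16.2 and 16.1 in CL1-5, 26.3 and 32.5 in PC9, 7.04 and 7.85 in H1299, and 21.6 and 17.6 in H1792. A549 stood apart with a log2 difference of 1.07 (counting interval of the ratio 2.03 to 2.18), in a line where 15.5% of all tested genes were at least 2-fold higher. The mean log2 change of CD46 was 0.38 with a standard error of 0.17 (limma, adjusted p = 0.405), and 0.21 without A549.

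CD59, on the minus strand of chromosome 11 (33724556 to 33758025), read 28.4 FPKM in A549 Mock and 48.2 in A549 DAC, 8.62 and 7.48 in CL1-0, 38.6 and 30.7 in CL1-5, 33.6 and 41.2 in PC9, 96.0 and 89.4 in H1299, and 42.8 and 48.5 in H1792. It was higher after DAC in A549, PC9 and H1792 and lower in CL1-0, CL1-5 and H1299. The mean log2 change over the 5 fitted lines was 0.08 with a standard error of 0.17 (limma, adjusted p = 0.852). CL1-5 and its parent CL1-0 differed in the Mock level of this gene by more than their counting intervals (37.6 to 39.7 against 8.10 to 9.17 FPKM), with the invasive line higher, the opposite of the order of ADGRE5 in the same pair.

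Read together, the summed FPKM of CD46, CD55 and CD59 was 67.7 in A549 Mock and 119 in A549 DAC, 30.9 and 35.6 in CL1-0, 59.7 and 53.4 in CL1-5, 67.1 and 90.0 in PC9, 107 and 101 in H1299, and 123 and 168 in H1792. In A549 each of the 3 shields was higher after DAC, whereas in CL1-5, where ADGRE5 was 3.63-fold higher, the sum was 0.895 times the Mock value. The makeup of the sum differed between the lines: CD59 gave 89.8% of it in H1299 Mock, CD55 gave 47.5% in H1792 Mock and CD46 gave 44.8% in CL1-0 Mock. It also differed between treatments to an extent that varied by line. CD55 gave 10.8% in PC9 Mock and 18.1% in PC9 DAC, whereas CD59 gave 89.0% in H1299 DAC. The leading shield of each line was the same after DAC, although in A549 DAC CD46 (40.2%) and CD59 (40.6%) were nearly equal.

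CD47, on the minus strand of chromosome 3 (107761938 to 107810709), differed by less than 2-fold between treatments in each line. It read 5.07 FPKM in A549 Mock and 5.24 in A549 DAC, 3.50 and 2.93 in CL1-0, 5.46 and 6.55 in CL1-5, 14.2 and 14.7 in PC9, 8.07 and 10.4 in H1299, and 12.1 and 15.9 in H1792. PC9 and H1792 were the high lines under both treatments and CL1-0 the lowest. The mean log2 change was 0.10 with a standard error of 0.13 (limma, adjusted p = 0.755), and 0.028 without H1299. Of the 36 pairs of member and line, 7 were at least 2-fold higher after DAC (ADGRE5 in CL1-5, CD55 in PC9, CD46 in A549, and THY1 in CL1-0, CL1-5, PC9 and H1299), and 0 were at least 2-fold lower, on the log2(FPKM + 0.1) scale. For CL1-0, H1299 and H1792, 7.6%, 8.18% and 10.3% of all tested genes were at least 2-fold higher. The share at least 2-fold lower was 2.14% in CL1-0, 3.1% in PC9, 3.15% in H1299, 5.05% in CL1-5, 5.79% in H1792 and 6.69% in A549.

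**Figure D2:**
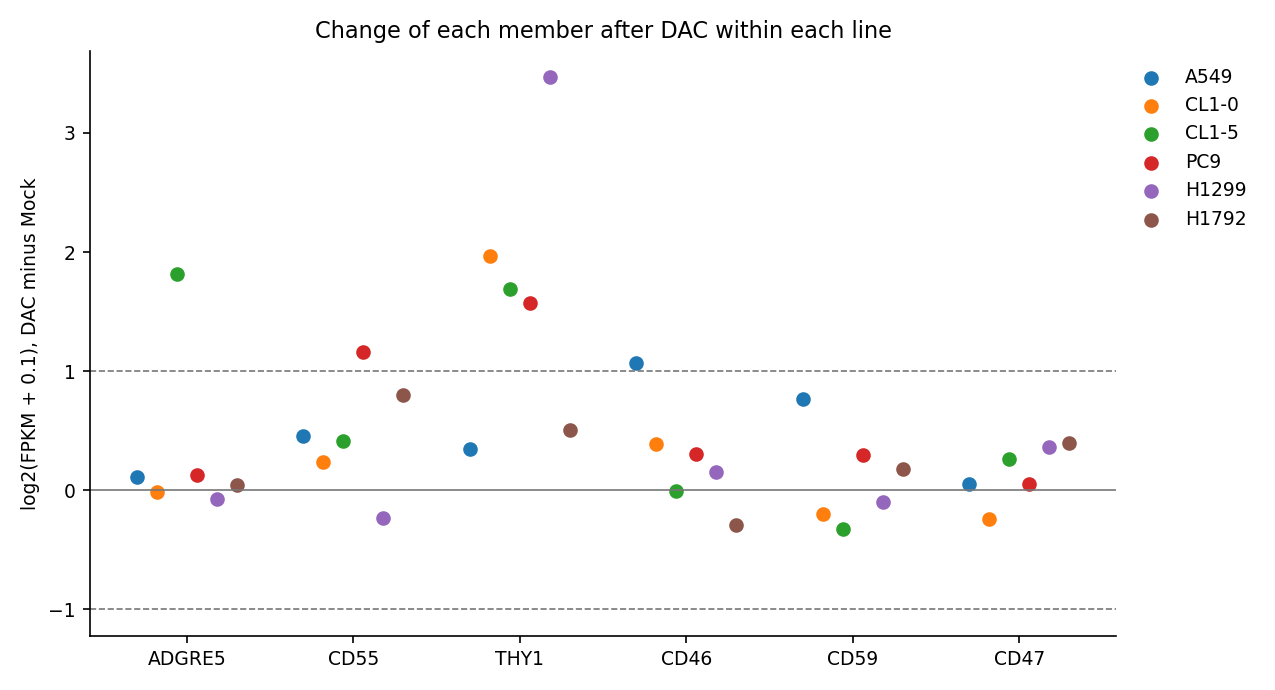
Difference of log2(FPKM + 0.1) between the DAC and the Mock library of each line (vertical axis) for the 6 members (horizontal axis), 1 point per line, with the solid line at no difference and dashed lines at 2-fold. ADGRE5 has 1 point above 2-fold, that of CL1-5 at 1.82, THY1 has 4, and no point lies below the lower dashed line.

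The relatives and partners of the members were taken from lists chosen with earlier results of these data known. In the EGF-TM7 group, 3 of 4 relatives of ADGRE5 were in the table, and 0 of them passed the adjusted threshold in limma. At an unadjusted p under 0.05, 1 was higher, beside 8.07% of all tested genes. ADGRE2, the closest relative of ADGRE5, read 0.103 FPKM in CL1-5 Mock (24 reads) and 0.382 in CL1-5 DAC (80 reads), a log2 difference of 1.25, against differences from -0.55 to 0.24 elsewhere. The EGF-like domains of ADGRE2 and ADGRE5 are nearly identical, so reads may be assigned to either gene, and their shared pattern is uncertain. ADGRE1, best known as a surface marker of mouse macrophages, read 0.0199 FPKM in CL1-5 Mock (2 reads) and 0.955 in CL1-5 DAC (86 reads), and 1.18 and 2.08 in A549. At least 2-fold higher were 2 of 3 tested relatives in CL1-5, beside 7.25% of all tested genes. So were ADGRE1 in CL1-0 (log2 difference 1.09, 1 and 15 reads) and ADGRE4P in H1792 (1.17, 3 and 15 reads). The share of all tested genes was 7.6% in CL1-0 and 10.3% in H1792. The log2 change of ADGRE1 over 5 lines was 1.14 with a standard error of 0.44 (limma, adjusted p = 0.364).

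Of 16 tested partners of ADGRE5 and THY1, mainly integrins and signal mediators, 0 passed the adjusted threshold in either direction, 4 had an unadjusted p under 0.05 and a higher level after DAC, and 0 had one with a lower level. Voom, limma's test on the recovered reads, called 1 of them higher (ITGB2). Over all genes 8.07% were higher and 4.4% lower at that unadjusted limit. The median log2 change of these partners was 0.13, beside 0.07 for all tested genes. ITGB2, the beta chain of the leukocyte integrins, had the largest change (1.43, standard error 0.30, adjusted p = 0.181 in limma) and read 0.586 FPKM in CL1-5 Mock and 3.39 in CL1-5 DAC. ITGA5, a chain of the fibronectin receptor that CD97 can bind, was higher in 5 of 5 lines (0.66, standard error 0.15, adjusted p = 0.204). At the other end were RHOA (-0.14), a small GTPase, and ARHGEF1 (-0.25), a RhoA exchange factor that couples to such receptors.

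Among 12 tested complement regulators outside the members, 0 passed the threshold (median log2 change 0.30, beside 0.07 over all tested genes). At an unadjusted p under 0.05, 1 was higher, which is near the 8.07% of all tested genes. C4BPB, a chain of the soluble inhibitor C4b-binding protein, had a log2 change of 1.17 (standard error 0.36) and SERPING1, the inhibitor of the first complement component, one of 0.81 (standard error 0.35), while CLU (-0.15), a secreted inhibitor of the membrane attack complex, was lowest. Partners of CD47 and other phagocytosis signals gave 0 calls among 10 tested genes, with 2 higher at an unadjusted p under 0.05, beside the same 8.07%. Voom made 0 calls in either list. Their extremes were the matrix ligands THBS2 (0.84) and THBS1 (0.80) above and QPCTL (-0.14), which modifies the SIRPA binding site of CD47, and SIRPA itself (-0.17) below.

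The GPI anchor shared by CD55, CD59 and THY1 gave a further group. Of 28 tested genes of anchor synthesis and attachment, 0 passed the threshold. Their median log2 change was -0.15, beside 0.07 over all tested genes. At an unadjusted p under 0.05, 4 were lower, against 4.4% of all genes. A mean change below 0 was seen in 20 of the 28, and the share of all tested genes below 0 was not counted. PGAP2, a remodeling enzyme, had a change of -0.68 (standard error 0.16, adjusted p = 0.217 in limma). DPM3, a subunit of the dolichol-phosphate mannose synthase, had one of -0.61 (standard error 0.16, adjusted p = 0.268 in limma). Both were lower in 5 of 5 fitted lines, and the share of all tested genes that were so was not counted. In H1792, outside the fit, the median of the list was 0.05. There DPM3 was higher after DAC (18.6 and 22.2 FPKM) and PGAP2 lower (7.14 and 5.37 FPKM). PIGW (0.35) and PIGG (0.25) were at the upper end. The number below 0 was 15 after rescaling to a common sum. Relative to the median of all genes the list was lower under each scaling, with medians of -0.03 against 0.17 after rescaling to a common sum and -0.19 against -0.04 after quantile normalization, and voom made 0 calls. Of 29 tested proteins that carry the anchor, 1 passed: BST2 (tetherin), an interferon-induced protein that holds viruses at the membrane, rose by 4.57 on the log2 scale (standard error 0.44, adjusted p = 0.0255 in limma). BST2 read 0.167 FPKM in A549 Mock and 7.10 in A549 DAC, 0.265 and 6.94 in CL1-0, 1.09 and 75.4 in CL1-5, 0.0860 and 6.99 in PC9, and 0.313 and 2.33 in H1299, so that every DAC library of the 5 lines exceeded every Mock library. Its call held without H1299 (adjusted p = 0.00769 in limma) and was lost without A549 (0.156), CL1-5 (0.110), CL1-0 (0.0881) or PC9 (0.0868). It was also lost without the line block (0.248), with a pseudocount of 1 (0.213), without a filter (0.133), after quantile normalization (0.0589) and without the trend (0.0506). MSLN (mesothelin) was next with 2.41 (adjusted p = 0.178), and GFRA1 (-0.45) and ULBP1 (-0.46) were lowest. The median log2 change of this list was 0.29, beside 0.07 over all tested genes. At an unadjusted p under 0.05, 7 of its genes were higher and 0 lower, beside 8.07% and 4.4% of all tested genes. Voom called 2 genes of this list, BST2 and FOLR1. FOLR1 read 0.355 FPKM in A549 Mock and 5.26 in A549 DAC, 0.519 and 6.36 in PC9, and at most 0.193 elsewhere.

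Genes whose levels across the 12 libraries were most like those of ADGRE5, by Pearson's r of log2(FPKM + 0.1) over 13363 genes, were PRTFDC1 (0.95), ZNF300 (0.91), ADGRE2 (0.91), IRF2BPL (0.88) and CITED2 (0.87). The 12 points share 6 cell lines, and r is given as a description. PRTFDC1 read 0.919 FPKM in CL1-5 Mock and 3.08 in CL1-5 DAC, and 10.2 and 8.67 in CL1-0. ZNF300, a zinc finger gene, read 0 and 1.28 in CL1-5, and 2.91 and 5.77 in CL1-0. Since likeness to ADGRE5 chose these genes, a difference in CL1-5 was built into the choice. Among the members themselves r with ADGRE5 lay between -0.30 (CD46) and 0.35 (CD47), and it was 0.23 for CD55 and 0.14 for THY1.

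Genes near ADGRE5 did not share its difference in CL1-5. DDX39A, an RNA helicase gene just downstream, read 35.1 FPKM in CL1-5 Mock and 41.1 in CL1-5 DAC (log2 difference 0.23). GIPC1, an adaptor gene, read 21.0 and 21.8 FPKM (0.06). PTGER1, a prostaglandin receptor gene, and the non-coding LINC01842 and LINC01841 read at most 1.25 FPKM in CL1-5, and 3 further genes within 100 kb, ENSG00000267723, ENSG00000267474 and SNRPGP15, read at most 0.665 FPKM there.

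Open chromatin was ranked within each peak list, since fold enrichment over background is comparable only there. A gene took the strongest peak within 3000 bp of its listed start site and a percentile among 19052 genes with such a peak in at least 1 list. Genes without a peak share the lowest rank, which moves with the number of such genes. The peaks in the list labelled CL1-5 carry the name of PC9 and those in the list labelled PC9 the name of CL1-5. Of 71 genes with at least 10 FPKM in PC9 Mock and 3 reads or fewer in CL1-5 Mock, 95.8% had a promoter peak in the Mock list with the label CL1-5 and 46.5% in that with the label PC9. Of 25 genes on in CL1-5 and silent in PC9, 84.0% had a peak under the label PC9 and 56.0% under the label CL1-5, while for 48 genes on in A549 and silent in H1299 the labels held (83.3% against 33.3%). For 47 genes on in H1299 and silent in A549 the shares were closer (48.9% against 40.4%). The mRNA thus went against these labels, so values are given for "the library labelled CL1-5" and its PC9 counterpart, and each may belong to the other line.

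ADGRE5 had a peak at or just after its start site in 8 of 8 libraries, and 57.5% of the ranked genes had a promoter peak in 8 of 8. Its fold enrichment was 5.22 in A549 Mock and 3.57 in A549 DAC, 3.80 and 3.25 in H1299, 4.72 and 3.80 under the label CL1-5, and 3.10 and 2.99 under the label PC9. In the libraries labelled PC9, whose peaks are named for CL1-5, the peak was short, reaching from 167 to 459 bp after the start site in Mock and from 23 to 492 bp after DAC, against -57 to 1167 bp in A549 Mock. The promoter percentile of ADGRE5 was 48.8 and 31.4 in A549, 43.3 and 40.8 in H1299, 52.7 and 46.9 under the label CL1-5, and 36.3 and 36.5 under the label PC9, where a peak that ended at -2696 bp (Mock) or -2891 bp (DAC) from the start site was the strongest. Over 4 lines the percentile differed by -6.37 (SD 7.79) after DAC, and 3 of 4 lines were lower (p = 0.25 in an exact permutation test by sign flips, two-sided). The mean was -2.68 without A549. With 4 lines the test cannot go below 0.125.

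Within 50 kb of the gene, 25 separate peak regions were found in at least 1 library. The region 14 kb upstream (chr19:14477422-14477870) had a fold enrichment of 6.49 after Mock and 4.39 after DAC under the label CL1-5, 3.06 in A549 Mock, and no peak in the other 5 libraries. A region 2.9 kb upstream (chr19:14488815-14489260) was present in both libraries labelled PC9 (3.82 and 3.50) and in H1299 DAC (2.54) only. Inside the gene, the region 25 kb after the start was present in 8 of 8 libraries, and it is listed for the neighbor DDX39A. The regions numbered 11 and 15 in A549 Mock and DAC, 15 and 15 under the label CL1-5, 13 and 16 under the label PC9, and 12 and 15 in H1299. More peaks were listed after DAC in each line over the whole genome, from 45354 in H1299 Mock to 97584 in the DAC library labelled CL1-5, and the depth of each library is not given in the sources used here.

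**Figure D3:**
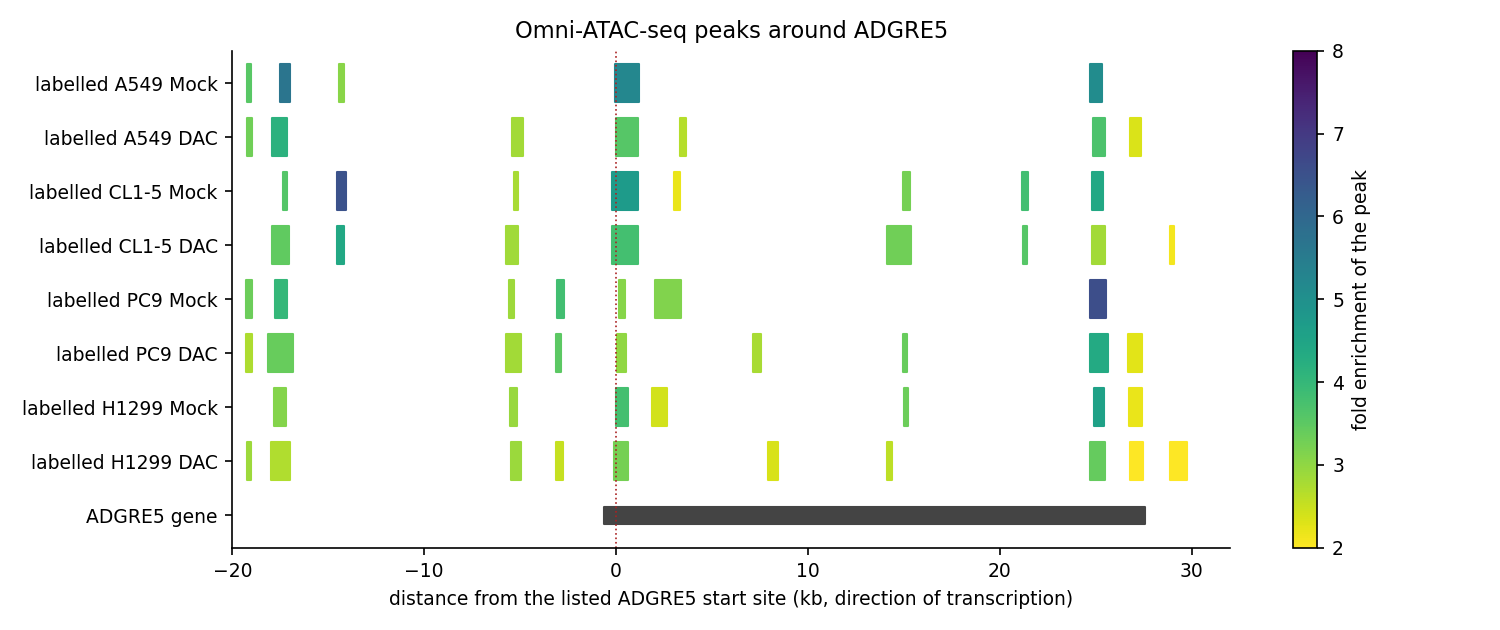
Omni-ATAC-seq peaks (bars, colored by fold enrichment) in the 8 libraries against the distance from the listed ADGRE5 start site in kb, with the gene as a dark bar and the start site as a dotted line. The start-site peak is present in each library and shortest in the Mock library labelled PC9, and the peak 14 kb upstream is present in 3 libraries.

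THY1 had a promoter peak in 3 of 8 libraries. In A549 it lay at different sites, 671 bp after the start in Mock (fold enrichment 3.35, the stretch printed above) and 330 bp before it in DAC (2.81). It was also seen in the DAC library labelled CL1-5 (2.47, 1052 bp after the start), where the Mock library had none. A promoter peak was gained in this way by 6.41% of the ranked genes under that label, by 8.51% in H1299, 8.59% under the label PC9 and 8.98% in A549. H1299, in which THY1 reached 1.01 FPKM after DAC, had no THY1 promoter peak under either treatment. Its DAC library had a peak of 2.32 toward the 3′ end of the gene (chr11:119287501-119287902), as did both libraries labelled CL1-5 (2.63 and 2.67). Of the 4 lines with both assays, A549 alone had more than 3 THY1 reads after Mock, and it alone had a THY1 promoter peak after Mock. The promoter peaks had −log10 q-values of 1.95 (A549 Mock), 1.28 (A549 DAC) and 1.33 (DAC, label CL1-5), so none passed a q-value under 0.01.

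CD55 was among the most accessible promoters, with percentiles of 94.5 and 93.2 in A549, 96.5 and 97.4 in H1299, 94.0 and 92.4 under the label CL1-5, and 79.8 and 94.3 under the label PC9. The last difference stood beside the 2.26-fold difference of CD55 mRNA in PC9, if the label holds, and beside the 1.34-fold difference in CL1-5, if the libraries are exchanged. CD46 had percentiles of 90.4 and 77.1 in A549, 84.2 and 89.3 in H1299, 71.5 and 72.2 under the label CL1-5, and 68.5 and 74.0 under the label PC9. In A549, therefore, the CD46 promoter ranked lower after DAC while its mRNA was higher (22.7 and 47.8 FPKM). CD47 ranged from 64.0 in H1299 Mock to 84.3 in the Mock library labelled CL1-5, and CD59, with 2 or 3 promoter peaks in each library, from 49.3 to 58.0. Over 4 lines the mean differences were 3.12 for CD55 (SD 7.66, p = 0.875), -0.52 for CD46 (SD 8.77, p = 1), -1.02 for CD59 (SD 4.45, p = 0.75) and 4.01 for CD47 (SD 8.51, p = 0.375) by the same exact permutation test. All 4 were smaller than the SD between lines. THY1 was not tested, since it had no promoter peak in 5 of 8 libraries.

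**Figure D4:**
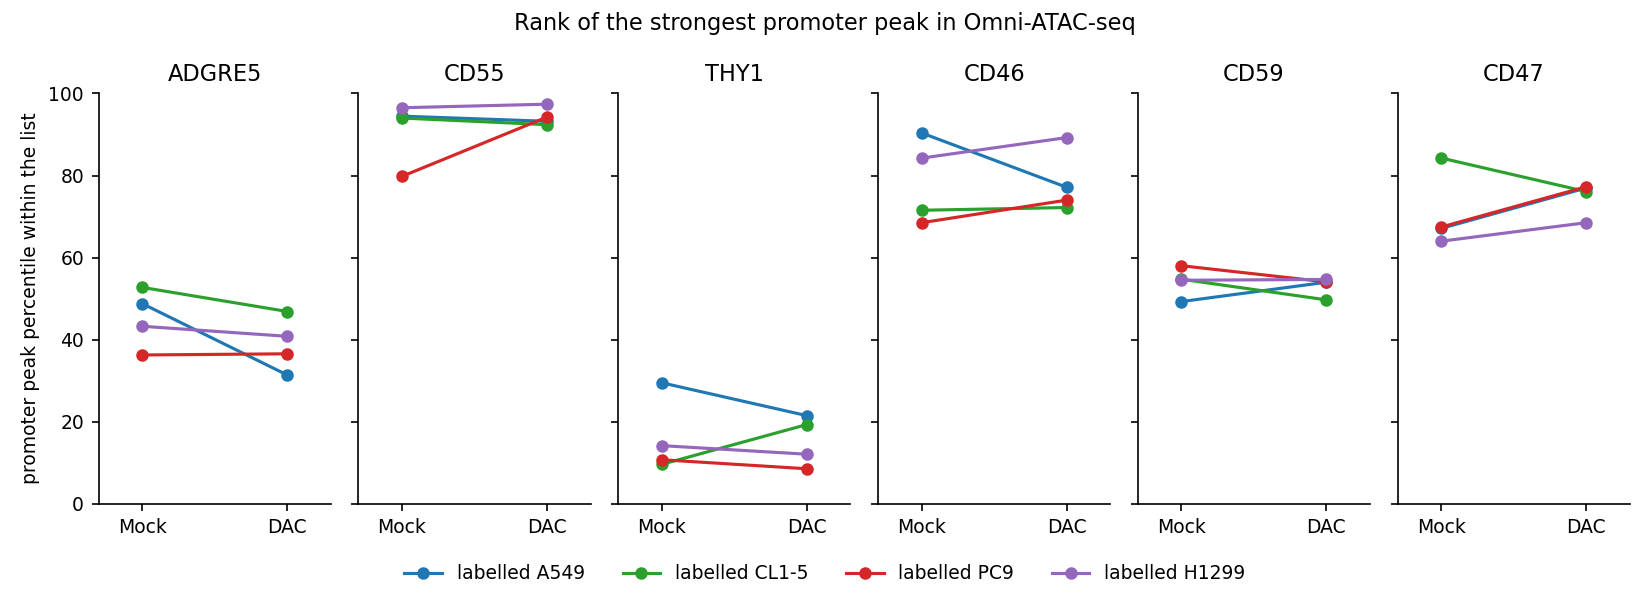
Percentile of the strongest promoter peak within its own list (vertical axis, 0 to 100) in the Mock and DAC libraries of 4 lines, named by their labels, for each member. CD55 lies between 79.8 and 97.4, ADGRE5 between 31.4 and 52.7 and THY1 at 29.5 or below, and for each member some lines differ upward and others downward after DAC.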

How the data were processed

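mRNA-seq (12 libraries) and Omni-ATAC-seq (8 libraries) were grouped by the line and treatment of their labels. The authors deposited FPKM values per gene, normalized with DESeq2 1.24.0 on hg19 and a GENCODE 25 annotation, beside a mean normalized signal over all libraries. The study's methods name RSEM with bowtie2 as the aligner, and the submitters' processing notes name TopHat2 2.1.1. The authors' fold changes, standard errors, test statistics and p-values in that table were not used. For chromatin, the authors aligned reads with BWA 0.7.17-r1188, dropped duplicate reads, called broad peaks library by library with MACS2 2.2.5 and annotated them with ChIPseeker 1.20.0, and each deposited list gives −log10 p-values, −log10 q-values and a fold enrichment. The number of value columns without a sample was 0.

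Whole reads were recovered from FPKM and the mean signal, and 100% of the values came out within 0.01 of a whole number. With limma 3.58.1 in R 4.3.3, log2(FPKM + 0.1) was fitted in the 5 lines other than H1792 for 22603 genes whose mean FPKM reached 0.1, with a term for each line and a trend on intensity. The Benjamini-Hochberg threshold was 0.05. Libraries are paired by cell line: after subtraction of the treatment means, r between both libraries of a line was 0.731 to 0.900, and at most 0.115 across lines. The fit was tested on simulated data. Promoter ranks were compared by exact permutation of signs (two-sided). Python 3.11.15, numpy 2.4.6, pandas 2.3.3 and scipy 1.17.1 were used, and figures were drawn with matplotlib 3.10.9. Gene positions and exons come from GENCODE 44 lifted to GRCh37.

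The members and lists were chosen with earlier results of these data known. Named genes are the members, the 5 genes most like ADGRE5 (mean FPKM of at least 1) and its neighbors within 100 kb. From each list they are the genes past the threshold with its 2 largest and 2 smallest mean changes, and any further gene called by voom. Of the named genes, 2 are not reported here, and neither is the sequence of 1 peak. Alternatives were H1792 added, no block, a pseudocount of 1 or 0.01, filters at a mean FPKM of 1 or none, other scalings, no trend, voom on the recovered reads, a window of 1000 bp, peaks at a q-value under 0.01, equal peak numbers, peak widths, reference start sites, exchanged labels and each line left out.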

Additional observations from a re-analysis of the deposited data

Results flagged for a closer look

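In 7 of 36 groups of values a single library or line stood far from the others of its group, by a rule that chance meets in about 1 in 20 groups. The log2 change of ADGRE5 after DAC was 1.82 in CL1-5, far above the other 5 lines, which is the value for which the gene was chosen, so this one says nothing about chance. THY1 in Mock stood at -1.96 on the scale of log2(FPKM + 0.1) in A549, above the lines with 0 to 2 reads. The CD55 promoter percentile was 79.8 in the Mock library labelled PC9, below the other 3 lines, and its difference between DAC and Mock was 14.5 under that label. The CD59 promoter percentile was 49.7 in the DAC library labelled CL1-5, and its range over the 4 DAC libraries was narrow, with 54.7 as the highest. The CD47 promoter percentile was 84.3 in the Mock library labelled CL1-5, above the others, and 68.5 in H1299 DAC, below the others. The lists labelled CL1-5 and PC9 carry each other's peak names.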

How the results depend on the processing

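None of CD55, CD46, CD59 and CD47 passed the adjusted threshold under any alternative run. THY1, whose fit is a description, drops out at a mean FPKM of at least 1, and its log2 change ran from 0.41 (pseudocount of 1) to 4.92 (voom). For CD55 the adjusted p-values in limma ran from 0.354 to 1.000. The mean changes over 5 lines kept their direction except for CD59, which ranged from -0.085 (without A549) to 0.19 when 1 line was left out. Leaving out 1 line gave 0.04 to 0.51 for ADGRE5, 0.21 to 0.48 for CD46, 0.22 to 0.57 for CD55, 0.028 to 0.18 for CD47 and 1.39 to 2.17 for THY1. The 27 genes higher after DAC became 53 with H1792 added, 178 with voom, 17 after quantile normalization, 10 with no replicate block for the line, 6 without the trend, 2 without a filter and 0 with a pseudocount of 1 (1411 at an unadjusted p under 0.05), and lay between 0 and 22 when a line was left out (0 without A549 or CL1-5, with 1206 and 1664 at an unadjusted p under 0.05). The 0 genes lower (994 at an unadjusted p under 0.05) became 1 with voom and were between 0 and 1 when a line was left out. The block changed no call of a member. Rescaling to a common sum moved the median log2 change of all genes from 0.07 to 0.17, and quantile normalization to -0.04. The 7 pairs of member and line at 2-fold became 4 with a pseudocount of 1. Ranks by summed peak width turned the sign of the mean percentile difference of CD55 (-3.29), THY1 (1.50), CD59 (1.13) and CD47 (-9.10). When a line was left out, the mean differences lay between -0.67 and 4.70 for CD55, -4.10 and 1.80 for THY1 (which has no promoter peak in 5 of 8 libraries), -2.53 and 3.73 for CD46, -2.93 and 0.33 for CD59, -8.58 and -2.68 for ADGRE5, and 2.06 and 8.08 for CD47. ADGRE5 was lower in 4 of 4 lines by summed width (-21.6) and with a window of 1000 bp (-5.57), both at the smallest possible p of 0.125 in the exact permutation test. The causes were not tested, and with 4 lines this test cannot pass the threshold. Exchanging the labels gives the difference of ADGRE5 in CL1-5 as 0.28 in place of -5.88 and leaves the means as they are.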
